A study of Drosophila melanogaster with 8 samples.

Results

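HeT-A, TAHRE and TART are the telomeric retrotransposons of Drosophila melanogaster. Their RNA levels were examined in ovaries as those of all transposable element (TE) families whose name begins with TART, HeT or TAHRE. The rule found 4 of the 111 families in the count tables, which were TART-A, TART-B, HeT-A and TAHRE, and all 4 were present in both tables. The rule used names only and no measured value.

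Drosophila has no telomerase. Its chromosome ends are instead extended by these non-LTR retrotransposons, which are copied from RNA and attach head to tail at the ends. HeT-A encodes a Gag protein that brings the RNA to the telomere but has no reverse transcriptase of its own. TART encodes its own Gag and a reverse transcriptase, and TART-A and TART-B are subfamilies of it. TAHRE joins a HeT-A-like Gag to a reverse transcriptase. In ovaries the telomeric elements are known mainly as germline elements that are repressed by the piRNA pathway, in which small RNAs bound to Piwi proteins silence matching elements.

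PolyA-enriched RNA from whole ovaries, pooled from 30 pairs per library, was sequenced in 4 groups of 2 replicates. The no-KD and piwi-sKD groups were the same fly line, a w strain with the driver tj-GAL4 and with the transgenes tubP-GAL80[ts] and sh-piwi. No-KD flies stayed at 20°C, where the temperature-sensitive GAL80 holds GAL4 inactive, and piwi-sKD flies spent their last 5 days at 25°C, where the hairpin against piwi is expressed. The double knockdowns, labelled with the same 5 days at 25°C, carried a single copy of the driver (tj-GAL4 / +) and had GAL80[ts] sh-piwi over a second hairpin, which was sh-w in piwi-sKD,ctrl-sKD or sh-dcr2 in piwi-sKD,dcr2-sKD. In their library names the place of the temperature holds a different, higher value, and the labelled 25°C was used here. Dcr2 is the nuclease that makes siRNAs, and the hairpin against white (sh-w) served as its control. All 4 groups therefore carried the piwi hairpin, and it was held off in no-KD alone. The tj (traffic jam) promoter drives GAL4 in the somatic follicle cells and not in the germline, so that the germline, also present in whole ovaries, was not the target of either knockdown. In whole ovaries, fewer cells of a type and less RNA per cell cannot be told apart. Between no-KD and piwi-sKD, depletion of Piwi and the change of temperature cannot be told apart. The fly's age was not given in the labels, and gene rows were not used here, so neither the knockdowns nor cell type markers were checked.

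Libraries held 78807 to 343458 reads assigned to TE families, with size factors of 0.927 to 1.13. Levels are read counts normalised by the authors for library size, in one table for no-KD and piwi-sKD and another for the pair of double knockdowns. Each table was normalised on its own, so tests were made within a table. Levels are not corrected for element length and are compared between samples, not between families. Replicates of each group varied beyond counting error, their reads over all families giving a chi-square of 2.39 to 33.5 times its degrees of freedom.

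None of the 4 families lay at the detection limit, and TAHRE was the nearest to it. The limit was taken as 3 reads, which corresponds to 2.66 to 3.23 normalised counts depending on the library. TAHRE was covered by 15 to 33 reads per library and ranked 100 of 111 families by mean reads. At its lowest it stood at 5 times the limit, with a counting error of 25.8%. TART-B was covered by 81 to 630 reads, HeT-A by 969 to 1917 reads and TART-A by 2250 to 3354 reads. Of the 111 families, 6 had a library with fewer than 10 reads, and no telomeric family was among them.

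**Figure D1:**
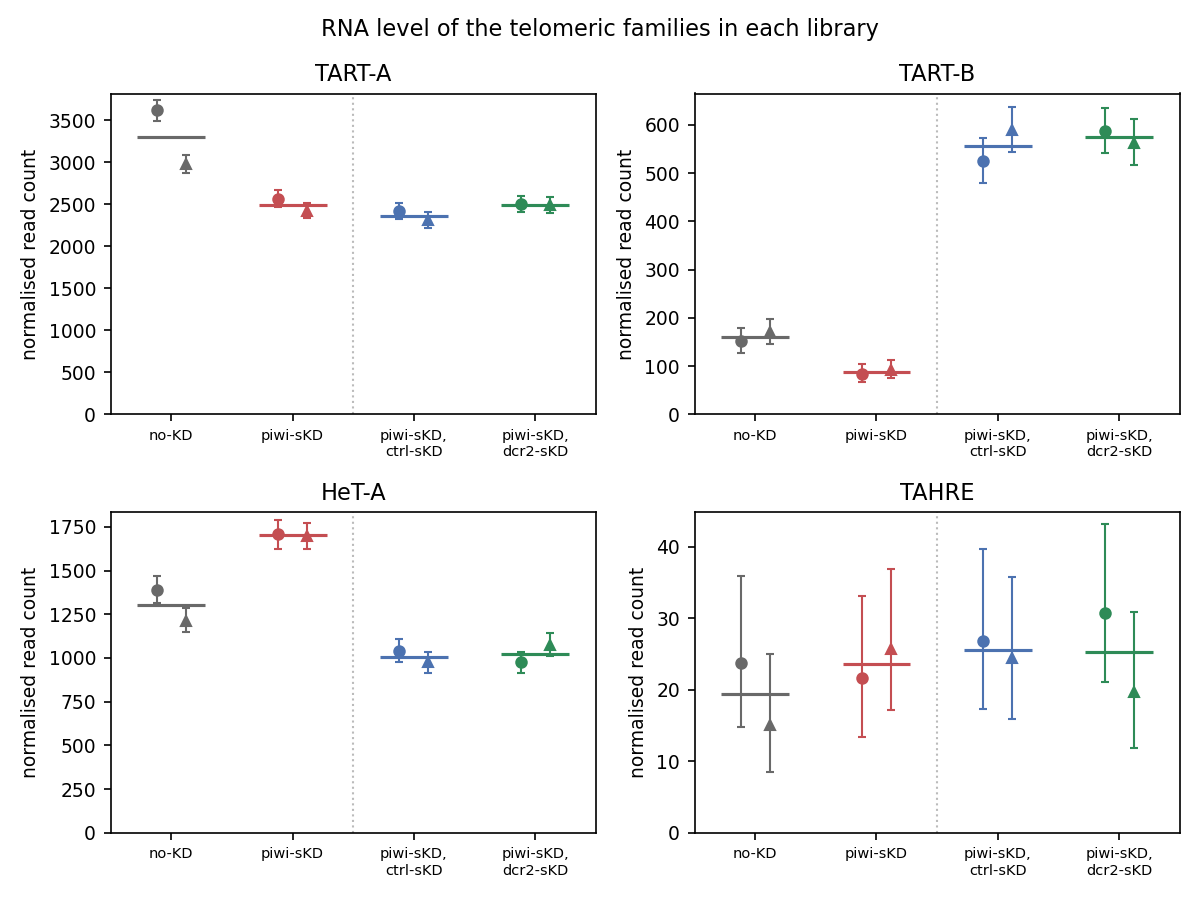
Normalised read counts of the 4 telomeric families in each of the 8 libraries. Circles are replicate 1 and triangles replicate 2, bars are 95% counting intervals, horizontal lines are group means, and the dotted line parts the separately normalised tables. TART-B had 83.7 and 92.0 normalised counts in piwi-sKD and 524 to 588 in the double knockdowns, and the intervals of TAHRE are wide because 15 to 33 reads lie behind each point.

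To see which copies could give these reads, TE insertions were taken from the BDGP6.54 annotation. This is not the list of copies used by the authors, so it describes the families and not the counting. HeT-A had 27 annotated insertions with 69668 bp in all. Of these, 25 lay in blocks at the ends of arms, at X:103614-122812, at 4:1272114-1345937 and at the end of 2R. TART-A had 10 insertions with 27391 bp. Nearly all of this length was at the end of chromosome 4, where long copies of 12349 bp (4:1320141-1332489) and 12306 bp (4:1333119-1345424) stood in tandem, both on the minus strand and outside annotated exons. TART-B had only 3 insertions with 985 bp, the longest of 486 bp. TAHRE had no insertion under its own name in this annotation.

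Some stretches annotated as TART lie inside protein-coding genes, and whether they are inserted copies was not tested. The 486 bp piece of TART-B (X:9678154-9678639, minus strand) lay wholly within coding sequence of nej, which encodes the acetyltransferase CBP and is on the same strand, and made up 49.3% of the annotated TART-B length. Another 468 bp of TART-B stood at the end of chromosome 4 (4:1274141-1274608), outside exons, and the last 31 bp on 3R (3R:14491496-14491526). For TART-A, a piece of 422 bp (X:9678736-9679157) also lay in coding sequence of nej. A piece of 700 bp (3L:16576994-16577693) overlapped exons of nxf2 by 630 bp, of which 614 bp were coding. The nxf2 product is a relative of RNA export factors that acts with Piwi in silencing in the nucleus. Reads from the mRNA of nej or nxf2 and reads from telomeric copies cannot be told apart in a family total, and their share in TART-A and TART-B was not tested.

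The first comparison set piwi-sKD against no-KD, which differ in depletion of Piwi in follicle cells and in temperature. The families did not move together. TART-B was 1.82-fold lower and TART-A 1.32-fold lower in piwi-sKD than in no-KD. HeT-A was 1.31-fold higher on the authors' scale, and for TAHRE no difference could be shown on it. Both came out lower under scalings built on TE families alone, which lower every family and are given beside each family and again with the totals over all families. These scalings hold the median TE level or the TE sum equal between samples. The authors' scale was set on genes and TEs together. On it the TE sum was 86455 and 79523 normalised counts in no-KD, against 198585 and 231108 in piwi-sKD.

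TART-B fell from 151 and 169.5 normalised counts in no-KD to 83.7 and 92.0 in piwi-sKD. The groups did not overlap, and the lower no-KD library stood well above both piwi-sKD libraries. The means were 160 ± 13.1 and 87.9 ± 5.91 (SD, n = 2 each). The log2 fold change was -0.86 ± 0.16 (SE, on the log2(value + 1) scale; 95% interval -1.24 to -0.48), with a limma adjusted p of 0.00229. Of the 109 families tested, 2 had a lower log2 fold change than TART-B. It was -2.03 after centring each sample on its median level and -2.21 after setting the TE sums equal.

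TART-A, the reverse transcriptase-bearing family with the long tandem copies on chromosome 4, went from 3616 and 2973 normalised counts in no-KD to 2562 and 2421 in piwi-sKD. The groups did not overlap, but the replicates of no-KD lay farther apart than its lower replicate and the higher of piwi-sKD. The means were 3295 ± 455 and 2492 ± 99.5 (SD, n = 2 each). The log2 fold change was -0.40 ± 0.12 (SE; 95% interval -0.67 to -0.13), with a limma adjusted p of 0.0175. The call was lost without replicate 1 of no-KD (log2 fold change -0.26, limma adjusted p of 0.186) and, with all libraries, without the variance trend (limma adjusted p of 0.0659). After centring on the median level it was called at -1.57, and with equal TE sums at -1.77.

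HeT-A, the family that supplies Gag but no reverse transcriptase, went from 1389 and 1214 normalised counts in no-KD to 1707 and 1697 in piwi-sKD. The piwi-sKD replicates were nearly equal, and both lay above no-KD. The means were 1301 ± 124 and 1702 ± 7.16 (SD, n = 2 each). The log2 fold change was 0.39 ± 0.10 (SE; 95% interval 0.15 to 0.63), with a limma adjusted p of 0.0116. Without replicate 2 of no-KD it was 0.29 with a limma adjusted p of 0.116. Its direction turned to -0.78 (limma adjusted p of 6.78e-06) after centring on the median level, where the median family itself stood at -0.70. With equal TE sums it turned to -0.98 (limma adjusted p of 2.39e-16), where the median family stood at -0.88. Each scaling was fitted anew, and how far its p-values rest on a family's own replicates was not recorded.

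TAHRE, the rarest of the 4 in reads, had no-KD levels of 23.7 and 15.1 normalised counts and piwi-sKD levels of 21.7 and 25.7. The groups overlapped. The log2 fold change was 0.30 ± 0.30 (SE; 95% interval -0.39 to 0.995), with a limma adjusted p of 0.408. Counting error alone gave the ratio of summed reads, 1.24, a 95% interval of 0.792 to 1.94. This interval includes no change, and it leaves out the spread between replicates. After centring on the median level TAHRE turned to -0.87 and was called lower (limma adjusted p of 0.0171). With equal TE sums it was called lower at -1.01 (limma adjusted p of 0.00129). The median family itself stood at -0.70 and -0.88 in these scalings.

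These changes stand against a general rise of TE RNA. The median log2 fold change of all 109 families was 0.47, with quartiles of 0.18 and 1.23. Relative to that median, TART-B stood at -1.33, TART-A at -0.87, TAHRE at -0.17 and HeT-A at -0.08. Hence HeT-A and TAHRE stood near the middle family of the table, and both TART families well below it. Past a limma adjusted p of 0.05, 2 of the 4 telomeric families were lower (TART-A and TART-B), against 6 of 109 families in all, or 5.50%. Further, 1 of the 4 was higher (HeT-A), against 60 families, or 55.0%. Centring each sample on its median level moved the median family by -1.17, past 0 to -0.70, and made these totals 22 higher and 70 lower. Setting the TE sums equal moved it by -1.35 to -0.88 and made them 22 higher and 78 lower. Without overlap between groups, 2 of the 4 were lower against 11.0% of all families, and 1 of the 4 was higher against 73.4%. None of the 4 passed 2-fold, against 30.6% of all families. Lower by more than 2-fold were TART-A and TART-B after centring (ratios of 0.336 and 0.243), and TART-A, TART-B and TAHRE with equal TE sums (0.295, 0.211 and 0.474). The 4 together made up 5.99% and 5.50% of TE reads in no-KD, against 2.20% and 1.83% in piwi-sKD, a description with no test. Their summed level went from 4776 ± 572 normalised counts in no-KD to 4305 ± 97.9 in piwi-sKD (SD, n = 2 each).

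**Figure D2:**
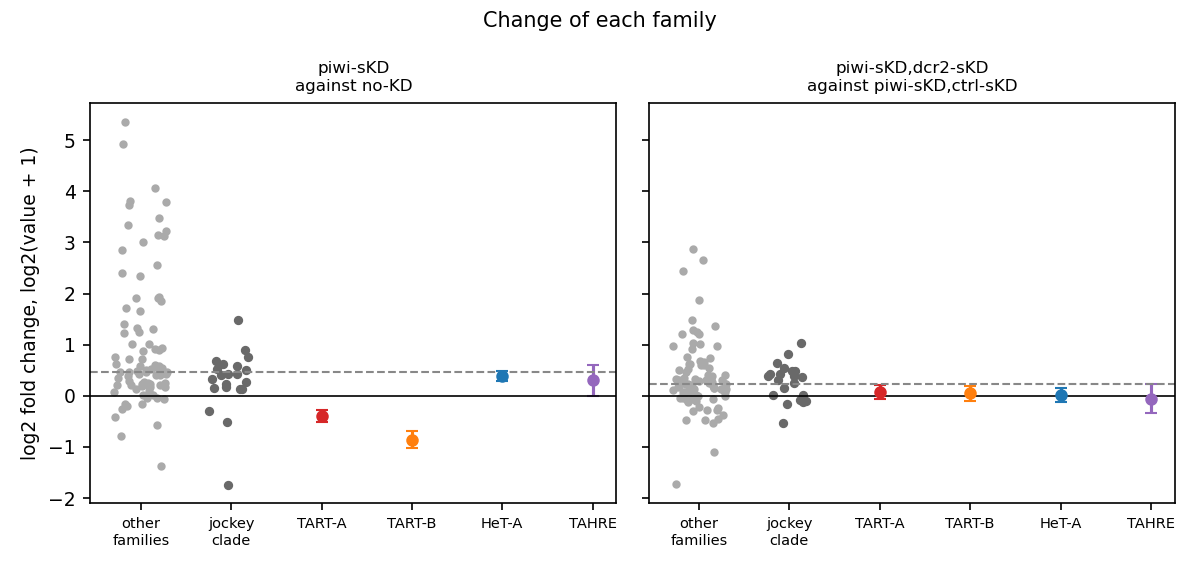
Log2 fold change of each family on the log2(value + 1) scale, in piwi-sKD against no-KD (left) and in piwi-sKD,dcr2-sKD against piwi-sKD,ctrl-sKD (right). Grey points are other families, dark points the other non-LTR elements of the jockey clade, coloured points the telomeric families with their SE, and the dashed line is the median of all families, at 0.47 and 0.24. TART-A and TART-B lie below 0 on the left, at -0.40 and -0.86, HeT-A lies at 0.39 and TAHRE at 0.30, both just below that median and both below 0 under scalings on TE families alone (not plotted), and all 4 lie near 0 on the right (below 0 under the same scalings).

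The balance between telomeric families was then taken within each library, where no normalisation enters. HeT-A reads per 100 TART-A reads were 38.4 and 40.8 in no-KD, against 66.6 and 70.1 in piwi-sKD. In the double knockdowns they were 43.1 and 42.2 with the control hairpin and 39.0 and 43.2 with the Dcr2 hairpin. Thus the piwi-sKD libraries had the highest values, and those of the double knockdowns lay between 39.0 and 43.2. The double knockdowns differ from piwi-sKD in genotype and in the copy number of driver and hairpin, whose part was not tested. HeT-A made up 26.8% and 27.8% of the reads of the 4 families in no-KD, against 39.0% and 40.1% in piwi-sKD.

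The share of TART-B gave another order of the groups. TART-B made up 4.01% and 5.39% of all TART reads in no-KD, with Wilson 95% intervals of 3.41% to 4.71% and 4.66% to 6.24%. In piwi-sKD it made up 3.16% and 3.66%, with intervals of 2.55% to 3.91% and 3.03% to 4.42%. These intervals overlap in part between the groups. In the double knockdowns TART-B took far more of the TART reads, 17.8% and 20.3% with the control hairpin and 19.0% and 18.5% with the Dcr2 hairpin. Per 100 HeT-A reads, TART-B had 10.9 and 14.0 reads in no-KD and only 4.90 and 5.43 in piwi-sKD. With the control hairpin it had 50.4 and 60.4, and with the Dcr2 hairpin 60.2 and 52.4.

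**Figure D3:**
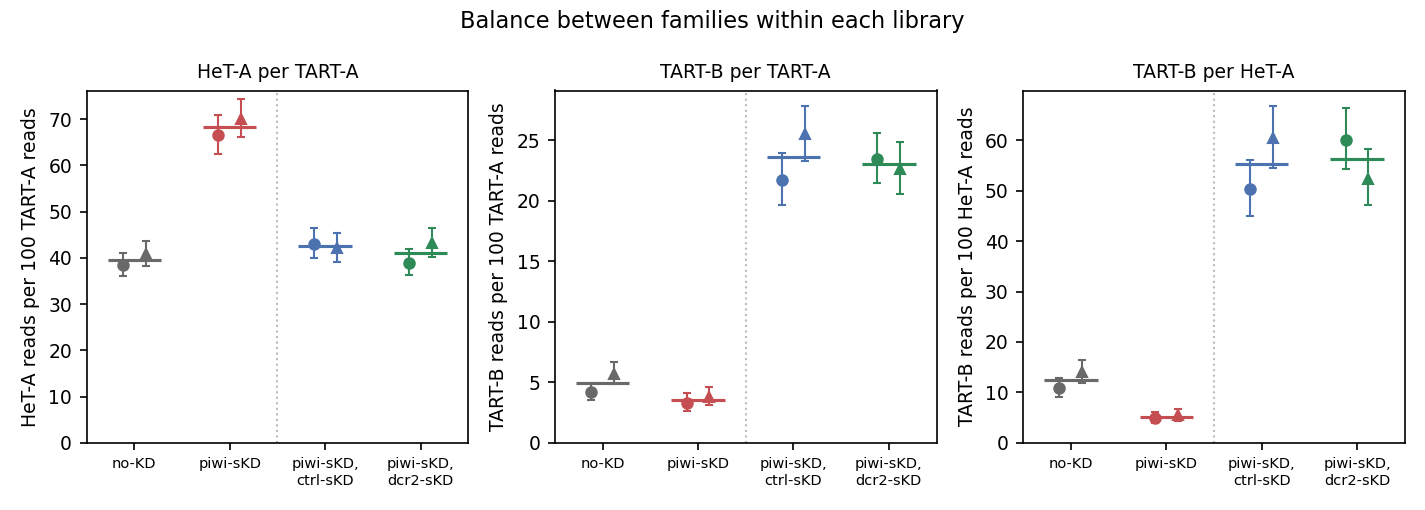
Reads of one telomeric family per 100 reads of another in each library, with 95% counting intervals. Circles are replicate 1, triangles replicate 2 and horizontal lines group means. HeT-A per TART-A is highest in piwi-sKD (66.6 and 70.1), while TART-B per TART-A is between 21.7 and 25.5 in the double knockdowns and between 3.27 and 5.70 in the other 4 libraries.

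Set side by side across the separately normalised tables, the mean level of TART-B was 6.33 times as high in piwi-sKD,ctrl-sKD as in piwi-sKD, against 0.948 times for TART-A, 0.592 times for HeT-A and 1.08 times for TAHRE. The median of 105 families was 0.838, and of these families only Tirant, an LTR retrotransposon, had a larger ratio than TART-B. Against no-KD, which also differs in temperature, piwi-sKD,ctrl-sKD stood at 3.47 for TART-B, 0.717 for TART-A, 0.774 for HeT-A and 1.32 for TAHRE. For TART-B and HeT-A this direction was opposite to that of piwi-sKD against no-KD, and for TART-A and TAHRE it was the same. The groups differ in the whole genotype, including which chromosomes are heterozygous, and have different tables, so the hairpins and the genetic background cannot be told apart here.

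The second comparison asked whether depletion of Dcr2, on top of Piwi, changes the telomeric families. On the authors' scale no difference could be shown for any of the 4. After centring on the median level, TART-A, TART-B and HeT-A were called lower, at -0.45, -0.48 and -0.50 (limma adjusted p of 0.0109, 0.00519 and 0.00241). With equal TE sums all 4 were, at -0.64, -0.67, -0.70 and, for TAHRE, -0.75 (limma adjusted p of 6.47e-06, 6.86e-06, 9.33e-07 and 0.0153). In these scalings the median family stood at -0.29 and -0.48. TART-A had 2417 and 2309 normalised counts with the control hairpin and 2502 and 2489 with the Dcr2 hairpin. The groups did not overlap but lay close, with a ratio of means of 1.06 and a log2 fold change of 0.08 ± 0.14 (SE; 95% interval -0.20 to 0.36; limma adjusted p of 0.717).

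TART-B had 524 and 588 normalised counts with the control hairpin and 587 and 563 with the Dcr2 hairpin. The groups overlapped, with a log2 fold change of 0.05 ± 0.14 (SE; 95% interval -0.23 to 0.33; limma adjusted p of 0.811). HeT-A had 1041 and 974 normalised counts with the control hairpin and 975 and 1074 with the Dcr2 hairpin. These groups overlapped too, with a log2 fold change of 0.02 ± 0.14 (SE; 95% interval -0.25 to 0.30; limma adjusted p of 0.908). On this scale the intervals of TART-A, TART-B and HeT-A span small changes in either direction and do not reach 2-fold. Their spread was taken from the trend over families of similar level, so they do not exclude such a change for a given family.

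TAHRE had 26.9 and 24.4 normalised counts with the control hairpin and 30.7 and 19.7 with the Dcr2 hairpin. The Dcr2 libraries lay on either side of both controls, and the log2 fold change was -0.05 ± 0.29 (SE; 95% interval -0.61 to 0.51; limma adjusted p of 0.905).

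Over all 110 families of the second comparison, 30 were higher (27.3%) and 4 lower (3.64%), and 0 of the 4 telomeric families were among either. Scaling mattered for this split too, which became 15 higher and 43 lower after centring on the median level, and 12 higher and 65 lower after setting the TE sums equal. Without overlap, 54.5% of families were higher and 11.8% lower, and TART-A alone of the 4 was among the former. None of the 4 passed 2-fold, against 14.7% of all families. The median log2 fold change was 0.24, and relative to it the 4 families stood between -0.29 (TAHRE) and -0.16 (TART-A). The 4 together made up 2.08% and 2.17% of TE reads with the control hairpin and 1.28% and 1.41% with the Dcr2 hairpin. Their summed level did not fall with this share. It was 3953 ± 80.8 normalised counts with the control hairpin and 4120 ± 36.6 with the Dcr2 hairpin (SD, n = 2 each). The sum of all TE families was 192945 and 179192 with the control hairpin, against 319798 and 294253 with the Dcr2 hairpin. The prior degrees of freedom were infinite in this test, so the spread was taken wholly from the trend over families of similar level. The SEs, intervals and p-values take nothing from a family's own replicate spread beyond its part in that trend.

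The telomeric families belong to the jockey clade of non-LTR retrotransposons, whose other members insert at many places along the arms. Of 24 such families listed, 21 were tested. In piwi-sKD 8 of the 21 were higher, 1 was lower and 12 did not pass, with a median log2 fold change of 0.41 against 0.47 for all families. The largest of the 8 were G6 at 1.48, jockey2 at 0.89, Helena at 0.76 and Doc at 0.68. The lower one was G7, whose mean went from 4.24 normalised counts in no-KD to 0.517 in piwi-sKD, under the limit of 3 reads. Of the 12 that did not pass, Fw2 stood at -0.52 (means of 135 and 95.8 normalised counts, limma adjusted p of 0.0590). Fw3 stood at -0.29, and the rest of the 12 lay above 0. After centring on the median level 0 of the 21 were higher and 17 lower, and with equal TE sums 0 were higher and 18 lower. With Dcr2 depletion 4 of the 21 were higher (Doc at 1.02, F at 0.81, Doc4 at 0.54 and G at 0.49), 0 were lower and 17 did not pass, with a median of 0.36. Here the same scalings gave 1 higher and 6 lower, and 1 higher and 9 lower. The telomeric families stood below this clade median of 0.36, with log2 fold changes between -0.05 and 0.08, and that distance was not tested. Among the 17 that did not pass, some also lay in or below this range. Examples were Doc3 at -0.16, G5A at -0.09, G3 at 0.01 and Fw2 at 0.03. Others of the 17 lay above it, such as Doc2 at 0.39.

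Likeness of pattern was described by the Pearson correlation of log2 levels over the 8 samples, each centred on the mean of its table, so that differences between tables were removed. Each family was compared with 104 others whose mean reached 10 normalised counts, and samples of a table share its normalisation. TART-A was most like TART-B (r = 0.77), the LTR element diver (0.77) and the jockey-clade element Fw2 (0.72). TART-B was most like diver (0.83), TART-A (0.77) and the LTR element micropia (0.72). HeT-A was most like the LTR element gypsy4 (0.98) and the DNA elements transib2 (0.97) and mariner2 (0.94), and least like TART-B (-0.95) of all families compared. The correlation does not measure the size of a change. In piwi-sKD against no-KD the ratio of means was 1.31 for HeT-A, against 1.65 for gypsy4, 1.91 for transib2 and 8.83 for mariner2. TART-A, TART-B and HeT-A changed little between the double knockdowns on the authors' scale. For them the correlation therefore largely restates the direction in piwi-sKD against no-KD, from the same libraries, and is no separate support. TAHRE was most like invader1, jockey2 and BS (0.79, 0.66 and 0.66), on few reads.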

How the data were processed

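The authors trimmed reads with UrQt, aligned them to FlyBase genes with TopHat2 and counted genes with eXpress. TE reads were counted per family with TEcount (TEtools) on copies from the reference genome, and the submitters' processing notes name dm3. Counts of genes and TEs were normalised together by the authors with DESeq2 1.10. The deposited signal is this normalised read count per family, in 2 tables of 4 samples. How reads matching several families were assigned, and whether strand was used, is not given in the sources used here.

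All 8 columns of values were used. Every value was a whole multiple of a step within 1e-06 of a read, which gave the reads and size factor of each library. Reads, counting intervals and the limit of 3 reads rest on this step, and the tables hold too few low values for the stricter test that a count model would need. Groups came from the sample titles, and the study's methods describe the 2 replicates as biological. Within a table, each family above 0 in at least 1 sample went into a limma fit (version 3.58.1, R 4.3.3; lmFit, eBayes with trend). The input was log2(normalised count + 1). P-values were adjusted over all families by Benjamini-Hochberg, with a threshold of 0.05. This scale understates changes of low families. Prior degrees of freedom were 6.11 in the first comparison and infinite in the second, both on the authors' scale. Alternative settings were fitted anew, and their prior degrees of freedom were not recorded. An exact two-sided permutation of 2 against 2 samples cannot go below 0.333 and was not used. The script was tested on simulated data. Counting intervals (95%) and the limit of 3 reads cover counting error only. Families were named by the rule on names, with the 3 most similar families by correlation for each and, for the jockey clade, the lower families and the 4 largest higher ones. The members and lists were chosen with earlier results of these data known. Alternatives were other scalings, pseudocounts, filters, variance models, a replicate block and leaving out each library. No sequences of the elements were used here.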

Additional observations from a re-analysis of the deposited data

How the results depend on the processing

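The log2 fold changes of the 4 families in both comparisons were computed 108 times under other settings. Of these, 87 kept their direction and their side of the threshold, 4 lost the call, 1 gained it and 16 changed direction. Of those 16, 8 also gained a call, 2 were called in both directions (HeT-A) and 6 were called in neither. TART-B was lower in piwi-sKD in all 14 settings, with limma adjusted p-values of at most 0.0212.

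Scaling changed most. In piwi-sKD against no-KD, centring samples on their median level gave -0.78 for HeT-A (limma adjusted p of 6.78e-06) and -0.87 for TAHRE (0.0171), and -1.57 for TART-A and -2.03 for TART-B. Making the TE sum equal gave -0.98 (2.39e-16), -1.01 (0.00129), -1.77 and -2.21, with 100 calls in place of 66 and 58 families past 2-fold in place of 33. With Dcr2 depletion, centring gave -0.45 for TART-A, -0.48 for TART-B and -0.50 for HeT-A (limma adjusted p of 0.0109, 0.00519 and 0.00241), with 58 calls in place of 34 and 9 families past 2-fold in place of 16. An equal TE sum gave -0.64, -0.67, -0.70 and, for TAHRE, -0.75 (limma adjusted p of 6.47e-06, 6.86e-06, 9.33e-07 and 0.0153), with 77 calls. These scalings moved the median family by -1.17 and -1.35 in the first comparison and by -0.52 and -0.72 in the second, past 0 in each case.

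TART-A in piwi-sKD kept -0.40 but lost its call without a variance trend (limma adjusted p of 0.0659) and with the replicate block (0.0541). The cause was not tested. The replicate block left 58 calls in the first comparison and 36 in the second and changed no other call of the 4 families. Replicate numbers share only a number, since deviations from the group means correlated at -0.13 between samples of the same number in the first comparison and at 0.25 in the second, over 105 families and 2 pairs each. Pairing them crosswise in the first comparison, chosen after seeing the data, gave 72 calls.

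Leaving out 1 library at a time in piwi-sKD against no-KD gave -0.54 to -0.26 for TART-A, -0.94 to -0.78 for TART-B, 0.29 to 0.49 for HeT-A, -0.0070 to 0.61 for TAHRE, 49 to 64 calls and 30 to 35 families past 2-fold. TART-A lost its call without replicate 1 of no-KD and HeT-A without replicate 2. With Dcr2 depletion the ranges were 0.05 to 0.11 for TART-A, -0.034 to 0.13 for TART-B, -0.047 to 0.093 for HeT-A, -0.36 to 0.25 for TAHRE, 25 to 33 calls and 15 to 21 families past 2-fold. A group left with 1 library was assumed to vary like the other.

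The planned count-model tests were not run. Limma with precision weights on the recovered reads, chosen after seeing the data, gave 68 and 43 calls. Of the 4 families, depth limits TAHRE most, with 15 to 33 reads per library.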
